A study of Mus musculus with 6 samples.

Results

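The genes followed here make up the MHC class I presentation machinery: the heavy chains H2-K1 and H2-D1, their shared light chain B2m, the peptide transporter genes Tap1 and Tap2, the loading factor Tapbp, the immunoproteasome subunits Psmb8, Psmb9 and Psmb10, and the transactivator Nlrc5. They were chosen by name, with earlier results of these data known, and all 10 are in the deposited table of 15824 genes. They were measured by RNA sequencing of polyA-selected RNA in cells sorted by flow cytometry from mice aged 8 weeks. The labels call the cells alveolar macrophages. This identity was not tested, and marker values are given below. There were 3 wild-type (WT) libraries and 3 libraries of Men1 knockout (KO) mice. Men1 encodes menin, a scaffold of MLL histone methyltransferase complexes. The comparison sets cells labelled Men1 KO against WT cells. The strain, the sex, the driver and extent of the deletion and any pooling of animals are not given in the labels used here.

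MHC class I molecules show peptides of a cell's own proteins to CD8 T cells. Proteasomes cut the peptides, the TAP transporter carries them into the endoplasmic reticulum, and tapasin, the product of Tapbp, holds the empty heavy chain and beta-2 microglobulin to the transporter until a peptide binds. NLRC5 binds no DNA itself and acts through the RFX, CREB/ATF and NF-Y factors that sit on class I promoters, while IRF and NF-kB factors bind neighbouring elements. In macrophages, interferon gamma is the best known inducer of the whole set.

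Promoter sequence is shown first for 4 of the genes that rose, because the heavy chains and B2m share an arrangement of elements there. The RefSeq promoter table of build GRCm38.p6 has a window of 300 bases, 250 before and 50 from the start site, for 8 of the 10 genes. Nlrc5 and Tap2 are not in it. Capitals mark matches on either strand to CCAAT (the box bound by NF-Y), TGACG (the core of a cAMP response element), the NF-kB consensus, or the core of an interferon-stimulated response element (GAAA, any 2 bases, GAAA). The windows are chr17:34000298-34000597, minus strand, for H2-K1, chr17:35262844-35263143, plus strand, for H2-D1, chr2:122147437-122147736, plus strand, for B2m, and chr17:34187306-34187605, plus strand, for Tap1.
H2-K1: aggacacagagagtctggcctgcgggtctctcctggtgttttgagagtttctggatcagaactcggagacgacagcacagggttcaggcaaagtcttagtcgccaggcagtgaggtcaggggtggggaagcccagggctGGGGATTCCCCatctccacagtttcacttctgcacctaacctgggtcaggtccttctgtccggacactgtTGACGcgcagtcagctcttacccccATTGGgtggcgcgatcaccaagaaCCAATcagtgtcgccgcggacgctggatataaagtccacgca
H2-D1: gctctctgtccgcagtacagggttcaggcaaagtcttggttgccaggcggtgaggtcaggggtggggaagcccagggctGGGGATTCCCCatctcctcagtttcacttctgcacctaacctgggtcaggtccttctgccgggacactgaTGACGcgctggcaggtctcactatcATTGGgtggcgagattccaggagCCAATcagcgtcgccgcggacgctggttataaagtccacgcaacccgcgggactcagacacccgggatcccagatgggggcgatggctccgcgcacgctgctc
B2m: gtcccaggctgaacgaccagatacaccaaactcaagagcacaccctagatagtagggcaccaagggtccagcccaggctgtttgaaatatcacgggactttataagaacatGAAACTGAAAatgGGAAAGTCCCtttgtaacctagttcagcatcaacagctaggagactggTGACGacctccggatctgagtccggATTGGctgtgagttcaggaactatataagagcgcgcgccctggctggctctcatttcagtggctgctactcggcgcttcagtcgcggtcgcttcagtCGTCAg
Tap1: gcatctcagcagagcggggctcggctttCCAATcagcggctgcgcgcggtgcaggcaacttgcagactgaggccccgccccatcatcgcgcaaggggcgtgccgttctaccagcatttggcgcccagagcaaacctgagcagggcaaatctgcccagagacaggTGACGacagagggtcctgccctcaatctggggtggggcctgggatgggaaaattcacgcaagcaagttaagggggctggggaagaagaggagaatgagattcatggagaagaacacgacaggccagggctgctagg

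In H2-K1, H2-D1 and B2m, exactly 20 bases lie between TGACG and the next ATTGG, the CCAAT box read on the other strand. This spacing, noticed after the sequences were read, occurs in 26 of 27025 promoter windows (0.0962%), and in 0.190% of the windows of 9458 tested genes. CCAAT alone was found in 6 of the 8 windows, against 38.0% of all windows and 39.2% of those of tested genes. TGACG was found in 5 of the 8, against 20.9% of all windows and 32.0% of those of tested genes. The NF-kB consensus was found in H2-K1, H2-D1 and B2m and in 4.32% of all windows, and overlapping matches on both strands form the run GGGGATTCCCC of the heavy chains. The interferon-stimulated core was found in B2m and in 3.49% of all windows. The H2-K1 and H2-D1 windows are 88.3% identical over 239 aligned bases, with 47 unbroken identical bases around the NF-kB match. Tap1 and Psmb9 run in opposite directions from a common start region, and their windows share 275 bases, so the printed Tap1 sequence also holds most of the Psmb9 window. Their TGACG and CCAAT matches are the same bases, counted for both genes. A match describes the letters only.

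Total counts per library lay between 19955242 and 20151990. The label check held, since Men1 had 594 to 639 counts in WT libraries and 149 to 165 in KO libraries, so Men1 RNA was lower by 3.80-fold but still present. No label names the animal behind a library, so the p-values reflect the scatter among these samples alone, and that scatter may be technical. The 4 Y-linked genes Eif2s3y, Ddx3y, Kdm5d and Uty reached 283 counts or more in every library of WT and stayed at 2 or fewer in every KO library. Genotype and presence of Y-linked transcripts therefore cannot be told apart. Of the macrophage markers, Lyz2, Csf1r, Adgre1 and Cd68 were abundant, at 1201 to 18215 CPM (counts scaled to library size) on average in WT, but the alveolar macrophage marker Siglecf averaged 2.06 CPM (WT) and 1.34 CPM (KO). Of the other alveolar macrophage markers, Fabp1, Ear1 and Ear2 stayed under 1 CPM in every library. Car4 and Krt79, also listed as such markers, are not among the deposited genes. Marco rose from 172 to 1137 CPM (6.60-fold) and Chil3 from 6.94 to 13.9 CPM (2.01-fold), while Itgax fell from 53.0 to 43.8 CPM and Pparg from 18.96 to 13.1 CPM (edgeR adjusted p at most 5.3e-07).

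All 3 layers of the machinery rose in KO, and Nlrc5 did not rise with them. Of the 10 genes, 9 were higher in KO at an adjusted p under 0.05 (quasi-likelihood test of edgeR, Benjamini-Hochberg adjusted over 11817 genes), and none was lower. Among all genes tested, 34.4% were higher and 34.9% lower, 69.2% in all. In the same 9 genes every KO library lay above every WT library, a pattern seen in 35.4% of all genes tested. The rises were of modest size, from 1.14-fold for Psmb8 to 1.72-fold for H2-K1, and none reached 2-fold, as 8.20% of all genes did in either direction. The median log2 fold change of the 10 genes was 0.39, against 0.00143 for all genes. Bulk values cannot separate a change in the RNA of each cell from a change in the mix of cells.

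**Figure D1:**
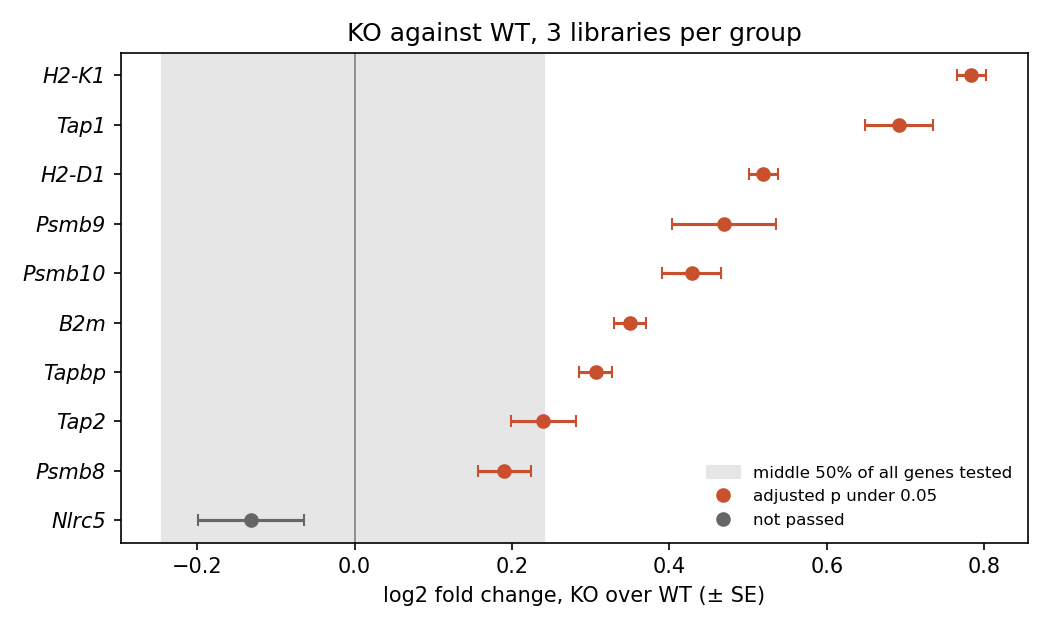
Log2 fold change of KO over WT for each of the 10 genes (points, bars are ± SE, 3 libraries per group), with the middle 50% of all tested genes as a grey band from -0.24 to 0.24. H2-K1 and Tap1 lie farthest to the right at 0.78 and 0.69, Psmb8 lies within the band, Tap2 at its upper edge, and Nlrc5 lies left of zero at -0.13.

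H2-K1 is a classical heavy chain that binds peptide and is recognised by CD8 T cells. It stood at 568, 583 and 577 CPM in WT libraries 1, 2 and 3, against 979, 1011 and 984 CPM in the KO libraries in the same order. The groups did not overlap, and each was tight. The mean rose 1.72-fold, from 576 ± 7.61 to 991 ± 17.1 CPM (SD, n = 3 per group, as for the means that follow), a log2 fold change of 0.78 (SE 0.019; edgeR adjusted p = 4.3e-29). It was the largest rise of the set, and 630 of the 11817 tested genes had a higher fold change. The gene lies on chromosome 17 from 33996012 to 34000619 (GRCm38.p6, gene ID 14972).

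H2-D1, the other classical heavy chain, stood at 2011, 2035 and 2071 CPM in WT, against 2839, 3036 and 2892 CPM in KO. Its groups did not overlap, and KO library 2 was the highest. It rose 1.43-fold, from 2039 ± 30.2 to 2922 ± 102 CPM (log2 0.52, SE 0.019; edgeR adjusted p = 9.87e-24). It lies from 35263094 to 35267497 on chromosome 17 (gene ID 14964). Class I heavy chains resemble each other, and 91.1% of 1578 aligned bases are identical between the longest coding transcripts of the pair in GENCODE M21. Of the runs of 50 bases in these transcripts, 8.79% for H2-K1 and 14.3% for H2-D1 also occur in another gene, while B2m, Nlrc5 and the 3 immunoproteasome genes share none. H2-D1 was also the only gene of the 10 with estimated counts that are not whole, in 2 of 6 libraries. No source used here says how shared reads were assigned, and class I genes vary between mouse strains, so the split between the heavy chains is less certain than their joint rise.

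B2m encodes beta-2 microglobulin, the light chain that every class I heavy chain needs to reach the surface. It stood at 1667, 1729 and 1613 CPM in WT, against 2095, 2205 and 2085 CPM in KO. Every KO library was above every WT library. The mean rose 1.27-fold, from 1669.6 ± 57.6 to 2128 ± 66.8 CPM (log2 0.35, SE 0.020; edgeR adjusted p = 2.35e-17). B2m is the only one of the presentation genes outside chromosomes 17 and 8, at 122147687 to 122153082 on chromosome 2 (gene ID 12010).

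The heavy chains rose by more than the light chain. The log2 ratio of H2-K1 to B2m counts within a library needs no scaling between libraries, and it moved from -1.54 ± 0.0457 in WT to -1.102 ± 0.0214 in KO. The ratio of H2-K1 to H2-D1 moved from -1.82 ± 0.0195 to -1.56 ± 0.0256, a 1.20-fold shift toward H2-K1. Both ratios separated the groups without overlap (two-sided exact permutation p = 0.1, n = 3 per group, the smallest this design allows, and 0.12 after adjustment over the 6 gene pairs compared). On the FPKM scale, which corrects for gene length, H2-K1 made up 23.1% ± 0.245 of the summed heavy chains in WT and 26.5% ± 0.353 in KO. The summed heavy chains were 0.594 ± 0.0253 times the B2m level in WT and 0.700 ± 0.0106 times in KO (n = 3 per group).

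Tap1 and Tap2 encode the subunits of the transporter that pumps peptides into the endoplasmic reticulum. Tap1 stood at 35.8, 32.6 and 34.2 CPM in WT, against 54.0, 54.9 and 56.7 CPM in KO. These groups did not overlap, and the mean rose 1.62-fold to 55.2 ± 1.37 CPM (log2 0.69, SE 0.043; edgeR adjusted p = 1.51e-16), the second largest rise of the set. Tap2 stood at 45.2, 46.8 and 47.1 CPM in WT, against 54.0, 52.5 and 57.7 CPM in KO, where the lowest KO library was not far above the highest WT library. It rose 1.18-fold to 54.7 ± 2.70 CPM (log2 0.24, SE 0.041; edgeR adjusted p = 4.08e-06). The call was lost on the log2(TPM + 1) scale (limma adjusted p = 0.0511) and when a biological coefficient of variation of 0.1 was assumed (edgeR adjusted p = 0.117).

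The transporter subunits therefore did not move in step. The log2 ratio of Tap1 to Tap2 counts went from -0.44 ± 0.0948 in WT to 0.013 ± 0.0472 in KO, a 1.37-fold shift (two-sided exact permutation p = 0.1, adjusted 0.12, n = 3 per group). Per length, Tap2 was above Tap1 in both groups, by 1.64-fold in WT and 1.20-fold in KO on the FPKM scale. Tap1 lies at 34187556 to 34197225 and Tap2 at 34204479 to 34216321 on chromosome 17 (gene IDs 21354 and 21355), with Psmb8 between them and Psmb9 just before Tap1.

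Tapbp, the tapasin gene, stood at 342, 343 and 349 CPM in WT, against 419.9, 423 and 436 CPM in KO. The libraries of a group were close together, and the groups did not overlap. It rose 1.24-fold, from 345 ± 3.56 to 426 ± 8.56 CPM (log2 0.31, SE 0.021; edgeR adjusted p = 3.13e-15). It lies at 33919478 to 33929290 on chromosome 17 (gene ID 21356). Other genes of peptide loading and trimming did not share this direction. Of 17 tested, 4 were higher (23.5%) and 8 lower (47.1%), against 34.4% and 34.9% of all genes. Their median log2 fold change was -0.07. The aminopeptidase gene Lnpep fell by 0.63 on the log2 scale, from 55.0 ± 0.548 to 35.5 ± 1.57 CPM. The chaperone genes Canx, Hsp90b1 and Hspa5 fell by 0.14, 0.13 and 0.12 on the log2 scale (edgeR adjusted p at most 1.02e-06 for these 4). On the log2(TPM + 1) scale 14 of the 17 were lower and 0 higher, where 48.9% of all genes were lower and 20.8% higher.

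The immunoproteasome genes replace the constitutive catalytic subunits of the proteasome and change which peptide ends it produces. Psmb9 stood at 15.4, 15.1 and 17.1 CPM in WT, against 20.4, 22.2 and 23.3 CPM in KO, and rose 1.38-fold (log2 0.47, SE 0.066; edgeR adjusted p = 9.11e-08). Psmb10 stood at 51.5, 50.01 and 48.6 CPM in WT, against 65.9, 67.8 and 68.4 CPM in KO, and rose 1.35-fold (log2 0.43, SE 0.038; edgeR adjusted p = 1.86e-12). In both genes all KO libraries were above all WT libraries by more than the spread within a group. Psmb8 moved least, with 122, 137 and 136 CPM in WT, against 144, 157 and 150.2 CPM in KO. It rose 1.14-fold (log2 0.19, SE 0.034; edgeR adjusted p = 7.25e-06), and WT library 1 was the lowest of the 6.

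The Psmb8 call depends on the scale. Its log2 fold change was 0.049 on log2(TPM + 1) (limma adjusted p = 0.338), and its adjusted p was 0.211 when a biological coefficient of variation of 0.1 was assumed. Psmb9 and Psmb8 lie at 34182030 to 34187330 and 34198195 to 34201454 on chromosome 17 (gene IDs 16912 and 16913), and Psmb10 at 105935728 to 105938392 on chromosome 8 (gene ID 19171).

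Set against the subunit each one replaces, Psmb9 and Psmb10 gained and Psmb8 did not. Psmb9 made up 10.5%, 10.1% and 11.3% of the FPKM of Psmb9 plus Psmb6 in WT libraries 1, 2 and 3, against 13.7%, 14.3% and 14.4% in the KO libraries in the same order. Psmb10 made up 19.4%, 18.3% and 17.8% of Psmb10 plus Psmb7 in WT and 22.6%, 22.7% and 23.9% in KO. Both shares separated the groups, by 3.54 and 4.52 percentage points (two-sided exact permutation p = 0.1, adjusted 0.15 over 3 shares, n = 3 per group). Psmb8 made up 29.1%, 31.0% and 31.2% of Psmb8 plus Psmb5 in WT and 31.2%, 29.7% and 29.2% in KO. These overlap, and their difference of -0.39 percentage points was smaller than the SD of 1.15 in WT and 1.03 in KO (two-sided exact permutation p = 1.0, n = 3 per group).

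**Figure D2:**
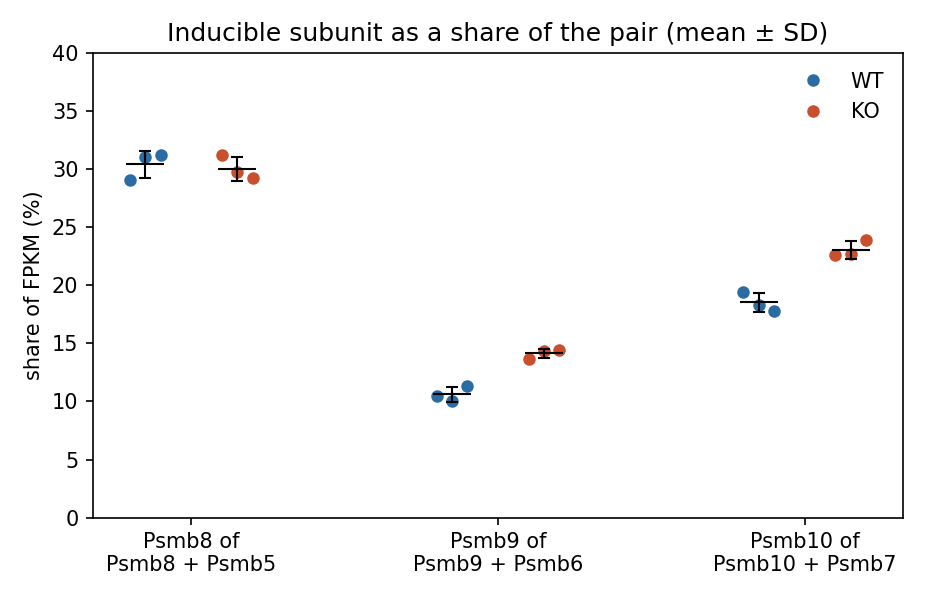
Share of FPKM (%) taken by each inducible subunit of the pair it forms with the subunit it replaces, per library (points), with mean ± SD in black for WT and KO (n = 3 each). The KO points lie above the WT points for Psmb9 (13.7% to 14.4% against 10.1% to 11.3%) and Psmb10 (22.6% to 23.9% against 17.8% to 19.4%), and the groups overlap for Psmb8.

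The replaced subunits themselves differed in their change. Psmb5 rose 1.17-fold, from 182 ± 3.11 to 212 ± 18.3 CPM (edgeR adjusted p = 6.43e-07), and Psmb8 rose 1.14-fold. The Psmb5 call, like that of Psmb8, was lost on log2(TPM + 1) (log2 0.076, limma adjusted p = 0.189) and at the assumed variation of 0.1 (edgeR adjusted p = 0.129). Psmb6 averaged 181 ± 3.43 CPM in WT, against 180.3 ± 6.65 CPM in KO (adjusted p = 0.914), and Psmb7 was at 135 ± 3.42 and 138 ± 2.59 CPM (adjusted p = 0.283), both by edgeR's quasi-likelihood test. Psmb6 passed as lower with the library total alone (log2 -0.061, edgeR adjusted p = 0.0433) and on the FPKM and TPM scales, at -0.15 on log2(TPM + 1). Of the 14 constitutive core subunits 10 were higher (71.4%) and 0 lower, against 34.4% and 34.9% of all genes. Their median log2 fold change was 0.13. Psma7, Psma6 and Psmb3, structural subunits of the core, rose 1.24-fold, 1.21-fold and 1.17-fold. On the log2(TPM + 1) scale 3 of the 14 were higher and 4 lower, against the all-gene shares on that scale given above.

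Activators and assembly factors of the proteasome went in both directions. Psme2, a subunit of the interferon-inducible activator cap, rose 1.47-fold, from 148 ± 1.65 to 217 ± 2.37 CPM, and its partner Psme1, named after its value was seen, rose 1.10-fold (adjusted p = 0.00018). Pomp, the assembly chaperone, rose 1.17-fold. Psme3 and Psme4, which encode other activator caps, fell by 0.14 and 0.43 on the log2 scale. In all, 4 of 10 genes of this list were higher and 2 lower (edgeR adjusted p at most 1.37e-05 for Psme2, Psme3, Psme4 and Pomp). Of all genes tested, 34.4% were higher and 34.9% lower, so rises were about as common in this list as among all genes.

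Nlrc5 had the lowest FPKM of the set and did not pass the test. It stood at 17.96, 18.8 and 16.3 CPM in WT libraries 1, 2 and 3, against 15.3, 15.9 and 17.2 CPM in the KO libraries in the same order. The groups overlapped, since KO library 3 was above WT library 3. Its means were 17.7 ± 1.24 and 16.1 ± 0.937 CPM, a log2 difference of -0.13 (SE 0.068; edgeR adjusted p = 0.0835). This value is sensitive to single libraries and to scaling. It was -0.18 without WT replicate 3 (adjusted p = 0.0267) and -0.18 without KO replicate 3 (adjusted p = 0.0437), both past the threshold. With scaling to the library total alone it was -0.19 (edgeR adjusted p = 0.0136), and on log2(TPM + 1) it was -0.20 (limma adjusted p = 0.0211). It was below zero under each of the 19 alternatives. The gene lies at 94434335 to 94527272 on chromosome 8 (gene ID 434341) and is the 1 gene of the set not among the 6784 genes of the authors' deposited table for a heat map.

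**Figure D3:**
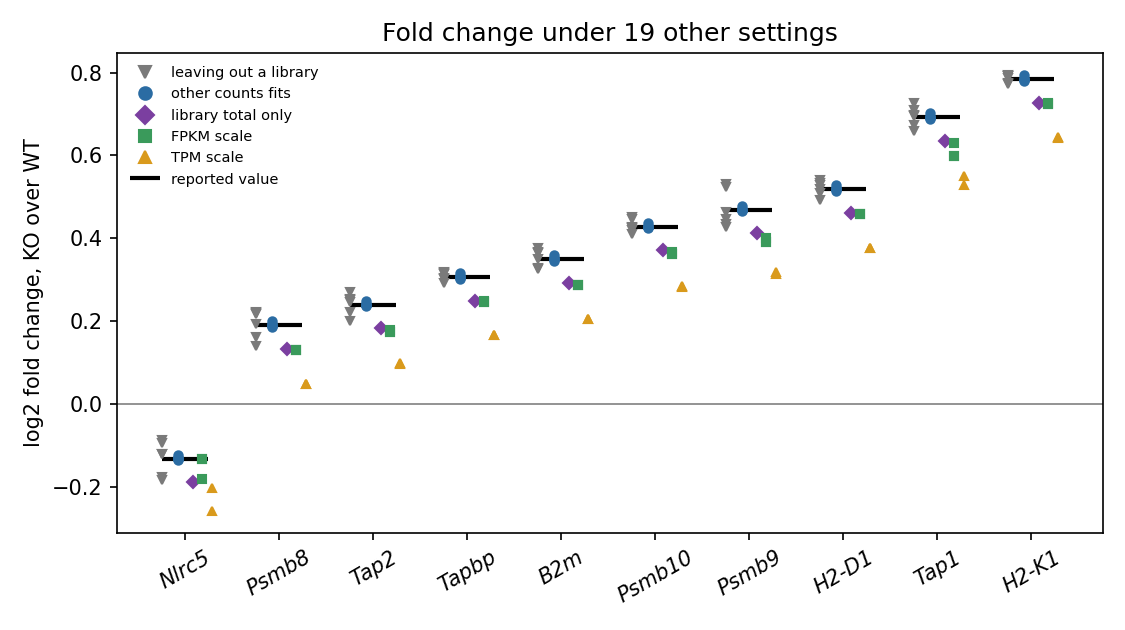
Log2 fold change of KO over WT for each gene (y axis) in the reported fit (black bars) and under 19 alternatives (symbols by kind). H2-K1 stays between 0.64 and 0.79 and Nlrc5 between -0.26 and -0.086, while the TPM scale gives the lowest value of every gene and puts Psmb8 at 0.049.

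The order of levels was nearly the same in both groups. On the FPKM scale it ran from B2m (3248 ± 111 in WT, 3962 ± 111 in KO) over H2-D1 (1483 ± 16.3 and 2039 ± 63.8) and H2-K1 (445 ± 3.89 and 736 ± 10.5) to Tap1 (13.3 ± 0.671 and 20.7 ± 0.454) and Nlrc5 (2.52 ± 0.188 and 2.21 ± 0.140). Psmb8 and Tapbp were neighbours in this order and overlapped between libraries in both groups, at 151 ± 8.50 and 146 ± 1.19 FPKM in WT and 165 ± 5.96 and 173 ± 3.01 FPKM in KO. All other neighbours were separated in every library. Psmb10 (54.5 ± 1.94 and 70.3 ± 0.847), Psmb9 (31.5 ± 2.13 and 41.6 ± 2.47) and Tap2 (21.9 ± 0.398 and 24.9 ± 1.20) filled the middle. B2m was at a higher FPKM than 99.8% of tested genes in WT, and Nlrc5 than 21.8%.

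**Figure D4:**
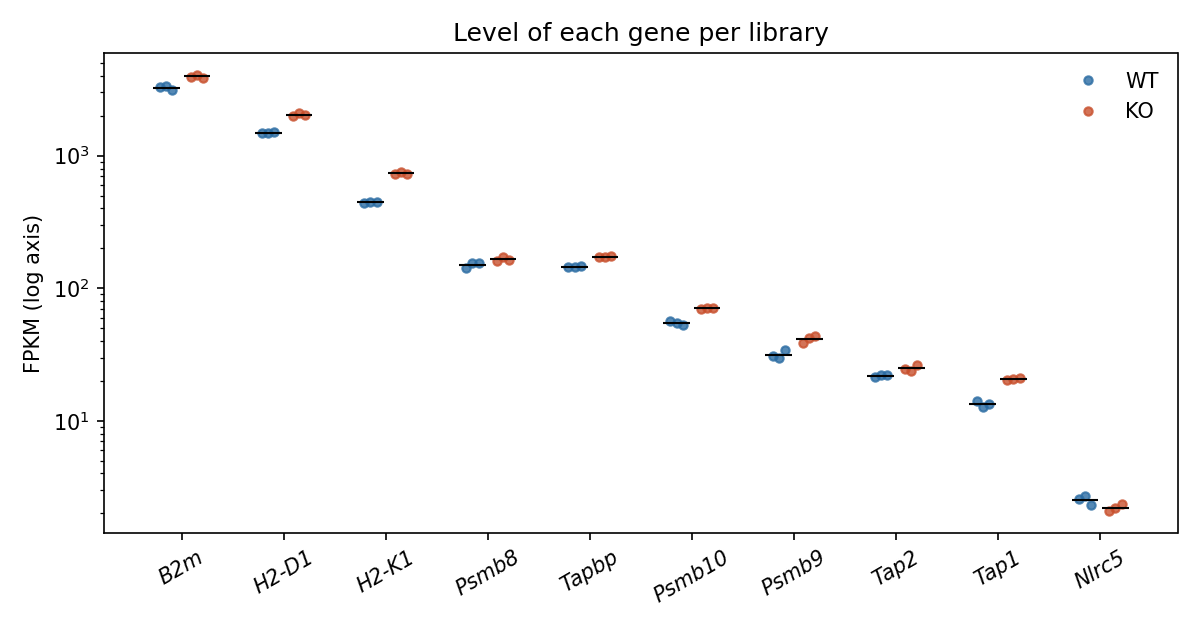
FPKM of each gene on a log axis, ordered by the WT mean, with 1 point per library and the group mean as a black line (3 WT, 3 KO). The levels span from 3123 or more for B2m to 2.69 or less for Nlrc5 in WT, and the KO points lie above the WT points except for Nlrc5, where they overlap.

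The other class I heavy chain genes rose less uniformly. Of 24 listed, 17 are in the table and 13 were tested, of which 9 were higher and 1 lower (median log2 fold change 0.31). These are 69.2% and 7.69% of the tested genes of the list, against 34.4% and 34.9% of all genes. The largest rises were in genes with special roles. H2-M2 rose 2.60-fold, from 4.97 ± 0.706 to 12.9 ± 0.814 CPM. Cd1d1, which presents lipids, rose 2.21-fold, Fcgrt, the neonatal Fc receptor heavy chain, 2.19-fold, and Hfe, a regulator of iron uptake, 1.69-fold (edgeR adjusted p at most 6.62e-15 for these 4). Reads of H2-M2 and of the H2-Q and H2-T genes may be shared with other class I genes, so their values are uncertain.

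Among factors that work with NLRC5 on class I promoters, shares were near those of all genes. Of 12 genes on that list 5 were higher (41.7%, against 34.4% of all genes) and 3 lower (34.9% of all genes were), with a median log2 fold change of 0.018. Rfxank, an RFX subunit, rose 1.32-fold, whereas Atf1, a CREB family factor, and Nfyb, an NF-Y subunit, fell by 0.38 and 0.26 on the log2 scale. Ciita, the class II transactivator and relative of NLRC5, rose 2.13-fold, from 7.35 ± 0.656 to 15.7 ± 0.925 CPM (edgeR adjusted p = 4.64e-14).

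Interferon pathway and NF-kB genes were mostly higher. In the interferon list 15 of 19 genes were higher (78.9%) and 1 lower (5.26%), with a median log2 fold change of 0.28. Of all genes, 34.4% were higher and 34.9% lower. Ifngr1, the ligand-binding chain of the interferon gamma receptor, rose 2.29-fold, from 88.8 ± 2.71 to 204 ± 4.85 CPM, and Ifngr2, its partner chain, rose 1.37-fold. Irf1, a factor that binds class I promoters, rose 2.09-fold, from 23.3 ± 0.425 to 48.7 ± 0.488 CPM, and Ifnar1, a type I interferon receptor chain, 1.24-fold. Of 8 NF-kB genes, 7 were higher (87.5%) and 0 lower. Relb and Nfkb2, of the non-canonical branch, rose 1.73-fold and 1.65-fold, Nfkbia, the inhibitor, 1.28-fold, and Nfkb1 1.19-fold. When a biological coefficient of variation of 0.1 was assumed, 9 of the 19 interferon genes and 3 of the 8 NF-kB genes were higher. On that assumption 18.4% of all genes were higher.

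Position was compared because 7 of the 10 genes lie in the MHC on chromosome 17. Of 61 other genes within 100 kb of any of the 10, 52 were tested. Of these, 29 were higher (55.8%) and 7 lower (13.5%), against 34.4% and 34.9% of all genes. Their median log2 fold change was 0.18. Around the 7 chromosome 17 genes, 22 of 35 tested neighbours were higher (62.9%) and 3 lower (8.57%). All tested genes of chromosome 17 outside the set, these neighbours included, gave 41.9% and 25.5%. Around Nlrc5 and Psmb10 on chromosome 8, 7 of 13 were higher and 1 lower, and around B2m 0 of 4 were higher and 3 lower. The 4 neighbours of lowest p were Aif1 and Lst1, myeloid genes near H2-D1, at 2.63-fold and 2.12-fold, the class II gene H2-Aa at 1.56-fold, and Dpep2 near Psmb10 at 1.93-fold (edgeR adjusted p at most 6.45e-22). Tnf, in the same stretch as Aif1, and Kifc1, near Tapbp, fell by 0.72 and 0.87 on the log2 scale and were named after their values were seen. On the log2(TPM + 1) scale 19 of the 52 neighbours were higher and 16 lower, where 20.8% of all genes were higher and 48.9% lower.

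**Figure D5:**
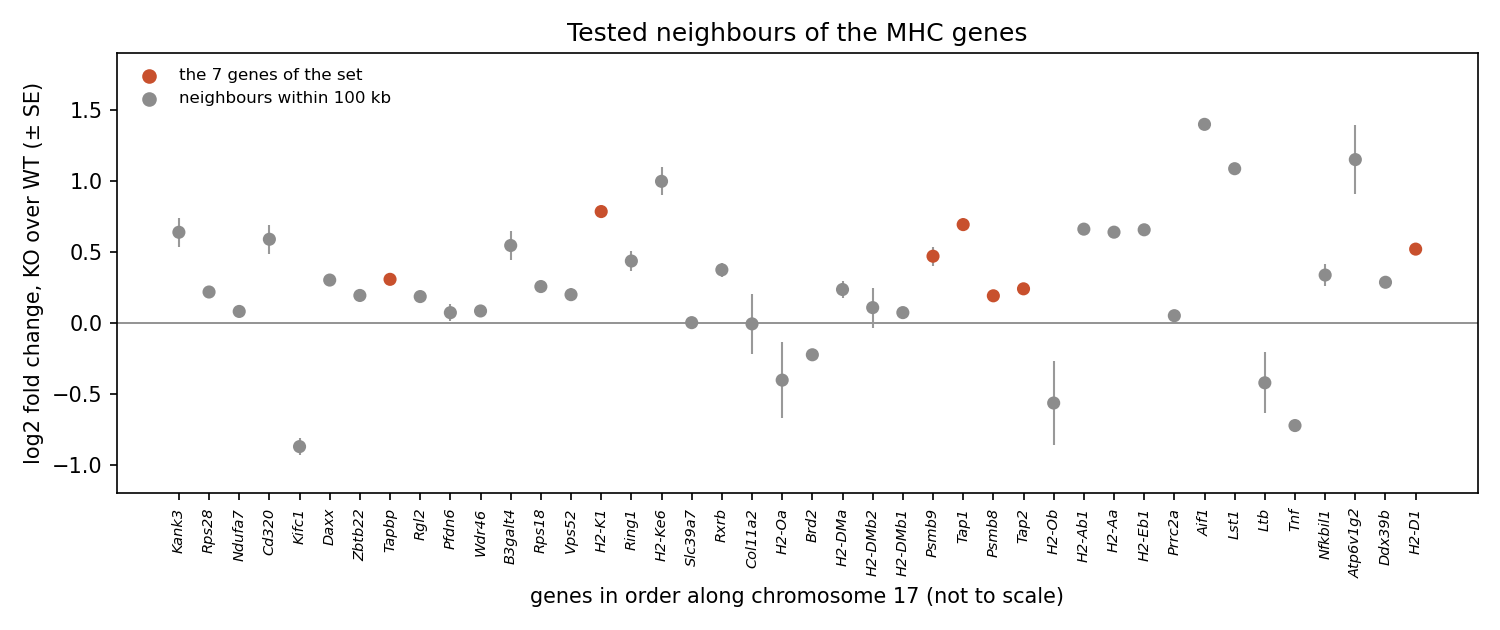
Log2 fold change of KO over WT (± SE, n = 3 per group) of the 7 chromosome 17 genes (red) and their tested neighbours within 100 kb (grey), in gene order and not to scale. The red points lie between 0.19 and 0.78, and grey points range from -0.87 for Kifc1 to 1.40 for Aif1.

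Profiles closest to H2-K1 over the 6 libraries, by Euclidean distance of centred log2 CPM among 9577 genes with at least 5 CPM, were those of Hcls1 (0.0522), Rnf150 (0.0569) and Pbxip1 (0.06004). Closest to Nlrc5 were 2810021J22Rik (0.0527), Zdhhc13 (0.0760) and Pias4 (0.0761). The 3 genes near H2-K1 rose 1.68-fold to 1.72-fold, and none of the 3 near Nlrc5 passed the test. These distances are descriptive, since 6 libraries in 2 groups give many genes nearly the same shape.

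Other cell types also carry class I molecules, so their markers are given beside these results. Summed T cell markers reached 0.884 to 1.02 CPM in WT and 1.12 to 1.53 CPM in KO, with 4 of 5 listed genes under 1 CPM in every library. Summed NK cell markers were at 0.146 to 0.393 and 2.49 to 2.81 CPM (3 of 4 under 1 CPM). That rise was in Klrb1c, at 0 to 3 counts in WT libraries and 48 to 53 in KO libraries. B cell markers were at 6.88 to 7.31 and 9.42 to 10.9 CPM (4 of 5 under 1 CPM), mostly Cd79b, which rose 1.47-fold. Dendritic cell markers were at 14.1 to 15.7 CPM in WT and 23.2 to 24.9 CPM in KO, with Xcr1, Clec9a and Cd209a under 1 CPM. Ccr7 made up most of that sum and rose from 11.4 to 19.8 CPM, whereas Zbtb46 was lower (edgeR adjusted p = 0.0393). Zbtb46 was at 13 to 26 counts in WT libraries and 7 to 14 in KO libraries, and its groups overlapped. Neutrophil markers were at 37.6 to 41.8 and 72.2 to 75.5 CPM, mostly S100a8, and S100a9 rose 3.19-fold. Retnlg and Mpo stayed under 1 CPM in every library. Mpo was 4.02-fold lower, at 12 to 17 counts in WT libraries and 2 to 5 in KO libraries. Fibroblast markers fell from 39.3 to 42.6 CPM in WT to 4.57 to 5.91 CPM in KO. Epithelial markers stayed at or below 0.536 CPM, and endothelial markers were at 25.5 to 26.5 and 22.9 to 24.3 CPM, with Pecam1 higher (1.73-fold) and Kdr 1.45-fold lower. Summed macrophage markers were at 21988 to 23127 CPM in WT and 25430 to 26193 CPM in KO, mostly Lyz2. Lyz2 and Cd68 did not pass the test. Mertk, Adgre1, Csf1r and Cd14 rose 2.99-fold, 2.55-fold, 1.91-fold and 1.63-fold (edgeR adjusted p at most 7.24e-24). Summed alveolar macrophage markers went from 250.5 to 257 CPM in WT up to 1192 to 1233 CPM in KO, mostly Marco. The part of these shifts in the class I rises was not tested.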

How the data were processed

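RNA from sorted cells labelled alveolar macrophages was sequenced in 3 WT and 3 KO libraries. The submitters' processing notes name HISAT, Bowtie2 and GRCm38.p6. Counter, strand use and annotation: not given in the sources used here. Deposited by the authors were expected counts, which are estimated read counts per gene, and 8.66% to 9.19% of genes have values that are not whole, so they were rounded. The authors' FPKM and TPM values, per the file headers, were used for levels per length and as alternatives. A deposited normalised count signal was not used. A deposited table of log2(FPKM + 1) values served only to see which genes it lists.

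The test was edgeR 4.0.16 (quasi-likelihood, TMM, filterByExpr, group only) in R 4.3.3, Benjamini-Hochberg adjusted, threshold 0.05. The filter left 11817 genes and removed 4007, and all 10 genes of the set passed it. CPM values are counts scaled to TMM-adjusted library sizes, and the SE of a fold change is derived from the test statistic. The estimated biological coefficient of variation was 1.66%. Ratios and shares were tested by exact permutation over libraries. Counts for KO against WT (11678 genes) were simulated with the variation of 1.66% for every gene. Changed genes had a mean WT count of at least 50. On these counts the test called 45 of 50 genes changed 1.25-fold, all 50 changed 1.5-fold and 7 of 11478 unchanged genes. The simulation cannot show how the test behaves with larger variation between animals. Alternatives were DESeq2 1.42.0, limma 3.58.1 (voom, and log2 values of FPKM or TPM after adding 1 or 0.1), other scaling and filters, a replicate block, a coefficient of variation set to 0.1, and leaving out each library. Deviations of same-numbered libraries correlated weakly (0.0334, 0.0265 and 0.0213 over 11817 genes, all under 0.1), so numbers were not taken as pairs. Promoter windows are RefSeq's, 1 per gene, at the most upstream start that table holds (the H2-K1 gene record reaches further upstream). Named genes are the 10, the subunits Psmb5, Psmb6 and Psmb7, the 4 tested genes of lowest p in each list, Men1, and the nearest profiles. The members and lists were chosen with earlier results of these data known. Python 3.11.15 with pandas 2.3.3, SciPy 1.17.1, Biopython 1.88 and matplotlib 3.10.9 did the rest. The values of 1 gene of the interferon list are not reported here.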

Additional observations from a re-analysis of the deposited data

How the results depend on the processing

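The count of 9 set genes higher in KO stayed within 1.5 times under all 19 alternatives. H2-K1, H2-D1, B2m, Tap1, Tapbp, Psmb9 and Psmb10 kept direction and call in each. Psmb8 lost its call under 4 of them: both TPM scales, log2(FPKM + 1) with no filter and the assumed variation of 0.1. Tap2 lost its call under 2, log2(TPM + 1) and the assumed variation of 0.1. The TPM scales moved the median of all genes from 0.00143 to -0.12 (log2(TPM + 1)) and -0.14 (log2(TPM + 0.1)), with 29.9% of calls higher against 49.6% in the reported fit. With the library total alone 41.3% of calls were higher, and on log2(FPKM + 1) 40.8%. Set genes lower in KO numbered 1 in place of 0 (Nlrc5) with the library total alone and on both TPM scales, and 0 to 1 with a library left out.

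In the reported fit the lists held 13 (other class I), 17 (peptide loading), 10 (activators) and 14 (core) tested genes. NLRC5 partners held 12, interferon 19, NF-kB 8 and neighbours 52. Of all genes, 4060 were higher and 4119 lower in the reported fit. On the TPM scales with 1 and 0.1 added, 2463 (20.8%) and 2466 (20.9%) were higher, and 48.9% and 49.0% were lower. When a coefficient of variation of 0.1 was assumed, 2180 (18.4%) were higher and 2226 (18.8%) lower. Under that assumed variation, higher genes numbered 5 (other class I heavy chains), 0 (peptide loading), 2 (proteasome activators), 1 (constitutive core), 2 (NLRC5 partners), 9 (interferon), 3 (NF-kB) and 16 (neighbours), and lower genes 1 (peptide loading), 1 (activators), 1 (NLRC5 partners) and 0 (interferon). On log2(TPM + 1), higher genes numbered 0 (peptide loading), 3 (core), 2 (NLRC5 partners) and 19 (neighbours), and lower genes 2 (other class I), 14 (peptide loading), 4 (activators), 4 (core), 6 (NLRC5 partners), 4 (interferon), 1 (NF-kB) and 16 (neighbours). On log2(TPM + 0.1) the same counts held, except 1 higher for peptide loading and 5 lower for activators.

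With the library total alone, peptide loading had 1 higher, the core 1 lower, NLRC5 partners 3 higher and 5 lower, and interferon genes 3 lower. On log2(FPKM + 1) and log2(FPKM + 0.1), peptide loading had 1 higher, the core 1 lower, NLRC5 partners 3 higher and interferon genes 2 lower. On log2(FPKM + 1) with no filter these were 1, 1, 2 and 2, with 2 lower among other class I and 11 lower among neighbours. DESeq2 gave 2 lower (other class I), 5 lower (peptide loading), 3 higher (NLRC5 partners) and 0 lower (interferon). With no low-count filter 2 of other class I and 0 interferon genes were lower. Lower genes ranged from 1 to 2 (other class I) and 0 to 2 (interferon) with a library left out. The shares of all genes higher and lower moved with the setting too. They were 28.7% and 40.9% with the library total alone, and 25.2% and 25.5% with DESeq2. On log2(FPKM + 1) they were 27.3% and 39.6%, and 20.3% and 30.4% with no filter. On log2(FPKM + 0.1) they were 27.2% and 39.6%. With no low-count filter in edgeR they were 26.2% and 26.4%. With a library left out, 32.6% to 33.2% of all genes were lower. The causes were not tested.

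With a library left out, the Psmb8 to Psmb5 log2 ratio difference ranged from -0.072 to 0.000507 and the Psmb8 share difference from -1.06 to 0.0202 percentage points, above zero without KO replicate 3. With counts in place of FPKM the share differences were 2.78 (Psmb9) and 5.71 (Psmb10) percentage points. Psmb6 (-0.0036 reported) was 0.0061 with no low-count filter and -0.028 to 0.026 with a library left out, and was called lower at -0.061 with the library total alone, -0.073 on the FPKM scales with or without filter and -0.15 on both TPM scales. Psmb5 (0.22 reported) lost its call on both TPM scales (0.076) and at the assumed variation of 0.1. Psmb7 (0.034 reported) was -0.023 with the library total alone, -0.030 on the FPKM scales with or without filter and -0.11 on both TPM scales. With the replicate number as a block, 9 set genes were higher and 0 lower, 4121 of all genes were higher and 4200 lower, and Nlrc5 had an adjusted p of 0.0737 (edgeR). Each library's deviations correlated most with those of its own number. Of named genes only Zdhhc13 changed its call under the block (adjusted p = 0.0421).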
